A study of Mus musculus with 4 samples.

Results

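Natural killer (NK) cells with little granzyme B and perforin message were described among the CD45+ leukocytes of mouse ovaries. NK cells are innate lymphocytes that kill target cells by releasing granules that hold perforin, which opens the target membrane, and granzymes, proteases that enter through it. They also secrete interferon gamma and chemokines. Their maturation in the mouse is commonly followed by the loss of Cd27 and gain of Itgam, with the transcription factor Tcf7 (TCF-1) high in early stages and Zeb2 and Tbx21 (T-bet) driving later ones. In the ovary and uterus, NK cells are found in tissue that is remodelled at each cycle, next to related group 1 innate lymphoid cells (ILC1) that carry Itga1 and Cxcr6.

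Female C57BL/6J mice aged 10 to 12 weeks had received gonadotropin (5 mice) or saline (5 mice, called untreated as in the sample names), and ovaries were taken 48 h later. No other allele or agent is named, nor which gonadotropin was given. Each mouse had a hashtag antibody of its own, and the 5 mice of a group were run as 1 pooled 10x Genomics 3' library, so that treatment and library cannot be told apart. Cells were tied to mice by hashtag only, and p-values measure the spread between mice of the 2 pools.

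Members were chosen by transcript counts (unique molecular identifiers, UMIs). The filter asked for 1 hashtag, a minimum of 500 genes and less than 10% of UMIs from mitochondrial genes, which 4918 of 6468 barcodes passed. Of the kept cells, 457 had at least 2 UMIs of Ncr1, Klrb1c and Klre1 together, no UMI of Cd3d, Cd3e or Cd3g, at most 1 UMI of Cd79a and Ms4a1, and at least 2 UMIs of Eomes, Itga2, Klra8 and Klra4. The 91 cells with the highest share of UMIs from Ccl3, Ccl4, Xcl1, Ifng, Nr4a3 and Tnfrsf9 (the top 20%, called chemokine-high) were then removed. Of the remaining cells, the 183 below the median share of Gzmb plus Prf1 are the subject here (NK-low), 123 from gonadotropin and 60 from untreated mice. The 183 at or above the median (NK-high) serve as their nearest comparison. Each mouse gave between 6 and 49 NK-low cells.

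The threshold fell at 1490 CPM of Gzmb plus Prf1 (UMIs scaled to counts per 1000000 of the cell). The nearest NK-low cell was at 1484 and the nearest NK-high cell at 1496 CPM, and 11 NK-low and 12 NK-high cells lay within 10% of it. The median was 593 CPM in NK-low cells (4 UMIs per cell) and 2930 in NK-high cells (18 UMIs per cell), and 9 of the 183 NK-low cells had no UMI of either gene. NK-low is thus a range below a threshold and not a separate cluster. Depth was similar, with medians of 7015 UMIs and 2809 genes per NK-low cell and 6327 UMIs and 2659 genes per NK-high cell. The median mitochondrial share was 1.33% in NK-low and 1.15% in NK-high cells. The libraries shared 4 cell barcodes, 0 of them in NK-low cells.

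Both the genes that the rule used and NK genes outside it were found in these cells. The latter, with Gzma among them, were lower in sum than in the other NK sets. Levels of sets are given as CPM of all UMIs summed over the set. The Ly49 receptor genes Klra8 and Klra4 were part of the rule and stood at 1180 and 1450 CPM in NK-low cells, against 2.70 and 0 CPM in the 51 cells that failed only the sum holding these genes, a gap that the rule set. Neither was seen in 35 NK-low cells, which passed on Eomes and Itga2. Klri2, an NK receptor gene that the rule did not use, was at 422 CPM in NK-low cells and 5.47 CPM in the 4410 other kept cells. Angpt1, which encodes the vessel-stabilising ligand of the Tie2 receptor, was at 288 CPM in NK-low and 5.16 CPM in those other cells. After each cell was thinned to 2000 UMIs, 32.4% of NK-low cells held an Angpt1 UMI, against 8.74% of NK-high and 0.394% of other kept cells. All 15 NK genes outside the rule, among them Nkg7 (a granule protein) and Klrk1 (the activating receptor NKG2D), were detected in both treatment groups. Summed by mouse, their medians in NK-low cells were 16300 CPM (gonadotropin) and 18400 CPM (untreated). In the same order they were 25500 and 28800 CPM in NK-high and 21500 and 23700 CPM in chemokine-high cells.

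Markers of other lineages were mixed. Cd4 was at 0 in NK-low cells, Trac at 7.40 CPM, and the B cell gene Cd79b at 2.22 CPM. The 7 B cell marker genes together ran from 123 to 156 CPM (median 129) in gonadotropin and from 89.9 to 201 CPM (median 163) in untreated NK-low sums. The 12 T cell marker genes, some of which NK cells also transcribe, summed to between 914 and 1430 CPM (median 1120) in NK-low cells of gonadotropin mice and between 865 and 1480 CPM (median 1220) in those of untreated mice, with Cd4 and Cd5 at 0 in both. The summed erythrocyte genes ran from 40.2 to 75.7 CPM (median 51.9) in NK-low cells of gonadotropin mice and from 0 to 15 CPM (median 0) in those of untreated mice, with Hbb-bt, Hba-a1 and Hba-a2 at 0 in all untreated mice. The part of this RNA in the treatment comparisons was not tested. Itga1 was at 42.9 CPM in NK-low and 6.27 CPM in NK-high cells, against 346 CPM in the cells that failed only the fourth sum. Cxcr6 was at 9.62 CPM in NK-low, 0.784 CPM in NK-high and 276 CPM in those failed cells. In all, 20 of 183 NK-low cells held an Itga1 UMI, 7 a Cxcr6 UMI and 4 both. The 9 ILC1 genes together ran from 41.2 to 974 CPM (median 326) in gonadotropin and from 135 to 805 CPM (median 246) in untreated NK-low sums, with Zfp683 at 0 in both groups.

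**Figure D1:**
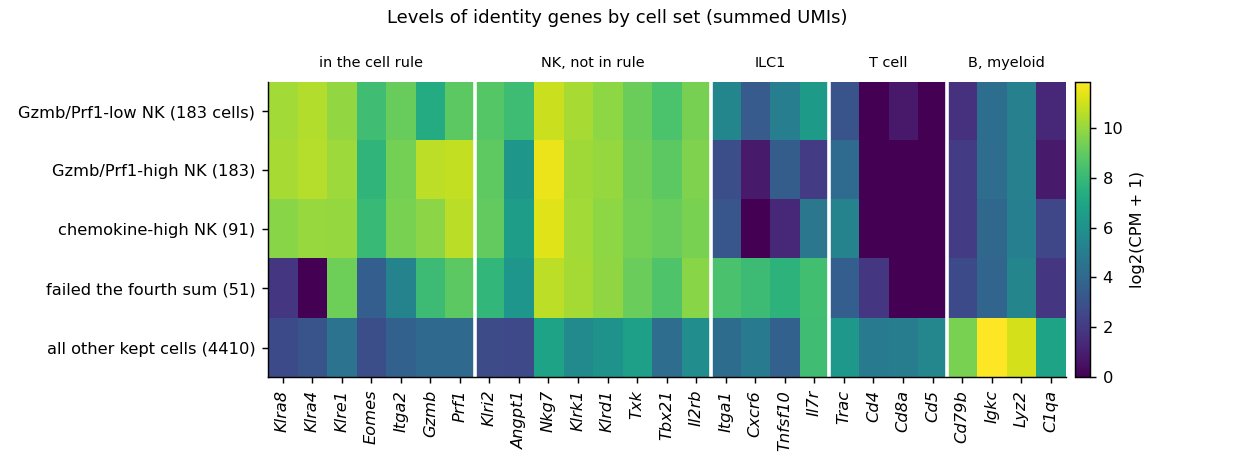
Levels of identity genes (columns) in 5 cell sets (rows), as log2(CPM + 1) of UMIs summed over all cells of a set, with no error shown. The 2 Ly49 genes Klra8 and Klra4 are bright in the 3 NK sets and near 0 in the bottom rows, Itga1 and Cxcr6 are brightest in the 51 cells that failed the fourth sum, and Cd4 is at 0 in NK-low cells.

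NK-low cells made up a larger share of ovarian leukocytes after gonadotropin, and so did NK cells as a whole, in a comparison where treatment and library cannot be told apart. Of the kept cells of each gonadotropin mouse, 4.62%, 3.17%, 6.21%, 5.92% and 4.95% were NK-low, against 1.78%, 3.23%, 3.77%, 2.03% and 1.65% in untreated mice. The 4 highest values were from gonadotropin mice, and the lowest of these mice (3.17%) lay inside the untreated range. The mean was 4.97 ± 1.2% with gonadotropin and 2.49 ± 0.95% without (SD, n = 5 each), a difference of 2.48 percentage points (exact two-sided permutation test, p = 0.0238, and 0.0357 after Benjamini-Hochberg adjustment over 3 shares). All gated NK cells averaged 12.5 ± 3.76% in gonadotropin and 5.89 ± 1.73% in untreated mice (SD, n = 5 each, exact permutation p = 0.0238, adjusted 0.0357). The smallest p that 5 against 5 mice allow is 0.0079. The adjusted p was 0.0714 when any of gonadotropin mice 1, 3, 4 or 5 or untreated mice 1, 4 or 5 was left out.

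The balance within the quiet NK cells showed no detected shift. NK-low cells were 37.1%, 63.2%, 51.4%, 57.0% and 48.6% of the NK-low plus NK-high cells of gonadotropin mice, against 50.0%, 56.8%, 57.1%, 42.9% and 41.4% in untreated mice. The groups overlapped throughout, with the lowest and the highest mouse both in the gonadotropin group. The means were 51.5 ± 9.75% and 49.6 ± 7.44% (SD, n = 5 each) in gonadotropin and untreated mice (exact permutation p = 0.698). With between 6 and 49 NK-low cells per mouse, a small shift could not have been seen.

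**Figure D2:**
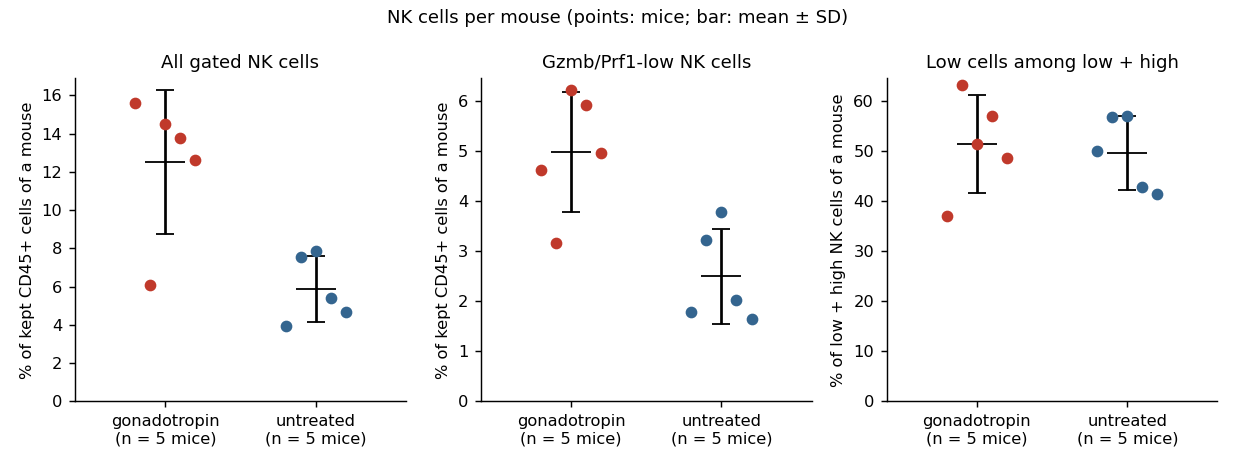
Shares of cells per mouse, in percent: all gated NK cells and NK-low cells as a share of the kept CD45+ cells, and NK-low as a share of NK-low plus NK-high cells. Points are mice (gonadotropin left, untreated right, 5 each) and bars the mean ± SD. NK-low cells averaged 4.97% against 2.49% of kept cells, while their share of NK-low plus NK-high cells averaged 51.5% against 49.6%.

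Genes that the rule did not use separated NK-low from NK-high cells of the same mice. UMIs were summed per mouse and set and compared with edgeR's quasi-likelihood F test with the mouse as a term, in all 10 mice, at an adjusted p under 0.05. NK-low cells had 301 higher and 205 lower genes out of 2235, 22.6% in all (13.5% higher and 9.17% lower), and 150 (6.71%) went the same way in every mouse. The median log2 fold change over all genes was -0.0065. The sets were split on Gzmb and Prf1 in these same cells, so genes that travel with this pair in a cell had to differ, and a gene that passed the filter through 1 set alone had to differ too. The gonadotropin pool alone gave 244 calls and the untreated pool alone 161, and of the 179 gonadotropin-pool calls that could be tested in the untreated mice 176 had the same sign there and 92 were also called. Both pools were split by the same threshold, which favours a shared sign.

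Emb led the genes that were higher in NK-low cells. It encodes embigin, a membrane glycoprotein that accompanies lactate transporters to the cell surface. Emb had 129, 364, 341, 253 and 163 CPM in NK-low cells of the gonadotropin mice and 120, 236, 168, 290 and 222 CPM in those of the untreated mice, against 18.1, 34.2, 18.2, 23.1 and 8.47 CPM and 0, 0, 0, 19.1 and 17.7 CPM in NK-high cells of the same mice. Every NK-low sum was above every NK-high sum in both treatment groups. The log2 fold change was 3.73 ± 0.26 (SE, edgeR, adjusted p = 1.12e-14). Emb passed the filter through NK-low cells alone, where it was high, so it had to differ and the test supports nothing further.

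Aff3, which encodes a nuclear protein of the AF4 family, ran from 208 to 697 CPM (median 377) in NK-low and from 37.4 to 142 CPM (median 72.4) in NK-high cells (log2 fold change 2.29 ± 0.17, edgeR adjusted p = 5.07e-14). Cd7, an immunoglobulin-family receptor of early T and NK cells, ran from 105 to 345 CPM (median 256) in NK-low and from 32.5 to 154 CPM (median 55.1) in NK-high cells, a log2 fold change of 1.97 ± 0.20. Both were higher in NK-low cells in all 10 mice. Ssbp2, a single-stranded DNA binding protein gene, had a log2 fold change of 1.85 ± 0.21, and Peli1, a ubiquitin ligase gene, one of 1.05 ± 0.15. Aff3, Cd7 and Ssbp2 passed the filter mainly through NK-low cells, where they were high. They had to differ, and their tests support nothing further.

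Genes of both Ctla2 cysteine protease inhibitors rose together. Ctla2a ran from 458 to 1100 CPM (median 716) in NK-low and from 74.8 to 293 CPM (median 206) in NK-high cells (log2 fold change 1.68 ± 0.17). Ctla2b ran from 102 to 303 CPM (median 220) in NK-low and from 37.4 to 137 CPM (median 78.8) in NK-high cells (1.19 ± 0.21). In the gonadotropin pool alone Ctla2b was not called (0.70, edgeR adjusted p = 0.0667). The 2 genes are close copies, and how reads were divided between them is not known. Smad7 (1.35 ± 0.23) and Ldlrad4 (1.63 ± 0.23), whose proteins both dampen TGF-beta signalling, were higher as well, as were Ccr2 (1.3 ± 0.17), the receptor for Ccl2, and Cd44 (1.24 ± 0.18), the hyaluronan receptor. All of these were higher in NK-low cells in 10 of 10 mice. Ctla2b and Smad7 passed the filter mainly through NK-low cells, where they were high, so they had to differ.

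Among the lower genes, Gzma, another granzyme and a gene outside the rule, moved with the pair that defined the sets. Gzma had 6810, 4350, 3930, 5970 and 5030 CPM in NK-low cells of gonadotropin mice and 5620, 5880, 6260, 5520 and 7290 CPM in those of untreated mice, against 12500, 12200, 11300, 13000 and 14000 CPM and 14100, 13500, 15900, 16900 and 11300 CPM in their NK-high cells. The sets did not overlap in any mouse. The log2 fold change was -1.24 ± 0.08 (SE, edgeR, adjusted p = 6.05e-16). Serpinb9, which encodes the inhibitor that protects a killer cell from its own granzyme B, ran from 112 to 370 CPM (median 188) in NK-low and from 376 to 648 CPM (median 470) in NK-high cells, without overlap (log2 fold change -1.10 ± 0.15).

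Irf8, a transcription factor gene needed for NK responses to virus, ran from 234 to 597 CPM (median 326) in NK-low and from 477 to 1270 CPM (median 905) in NK-high cells (log2 fold change -1.36 ± 0.13). The Ly49 receptor genes Klra3 (-1.40 ± 0.16) and Klra9 (-1.06 ± 0.11) were lower in NK-low cells in 10 of 10 mice, while Klra7 (0.21 ± 0.14) and Klra1 (-0.03 ± 0.26) passed no threshold. These genes are close copies of one another, so the division of reads among them is uncertain. Lower in all 10 mice as well were the long non-coding RNA Morrbid (-1.83 ± 0.23), known to restrain the death gene Bcl2l11 in myeloid cells, the kinase gene Cdk14 (-1.34 ± 0.17) and the ATPase gene Spata5 (-1.24 ± 0.22). So were Fgl2 (-1.23 ± 0.17), of the fibrinogen family, Ly6c2 (-1.22 ± 0.13), a surface marker of mature NK cells, the cyclin gene Ccnd2 (-1.06 ± 0.12) and the translation helicase gene Eif4a1 (-1.02 ± 0.15). Morrbid and Spata5 did not pass the main filter within NK-low cells. They entered this test mainly through NK-high cells, where they were high, so they had to differ.

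**Figure D3:**
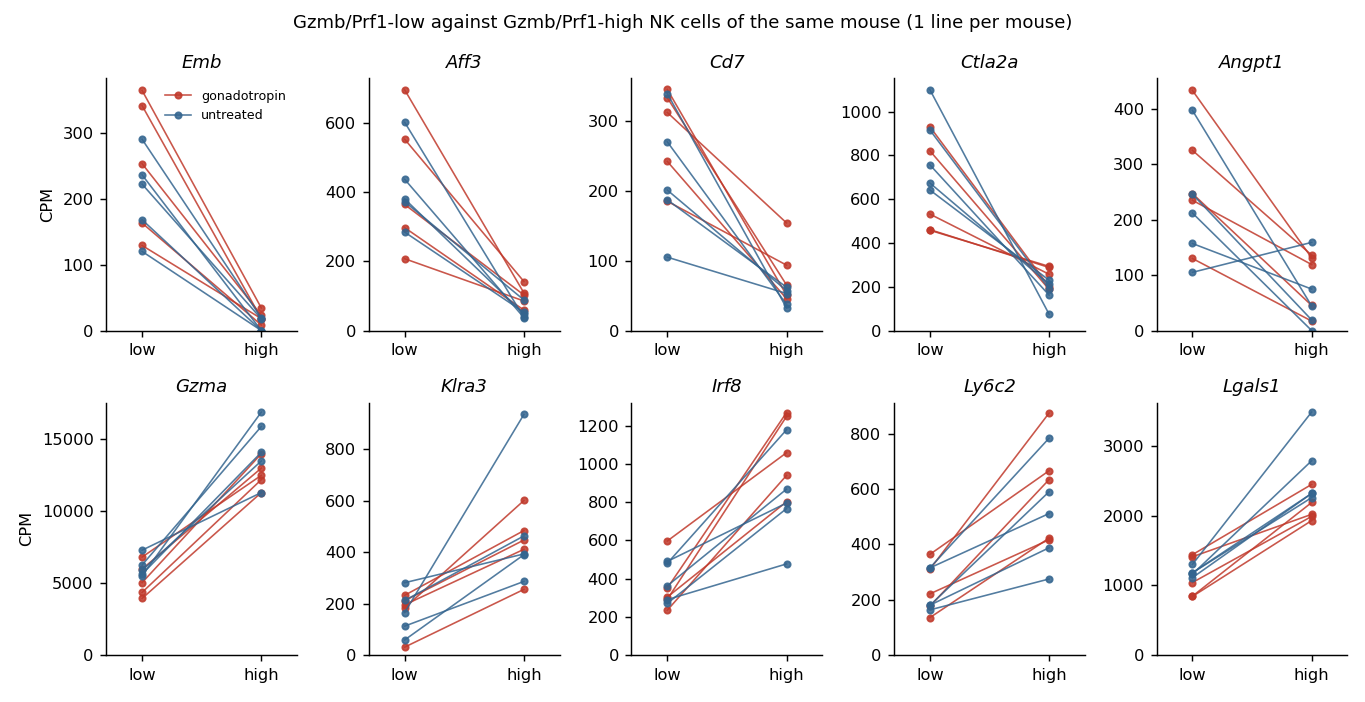
CPM of 10 genes in NK-low (left) and NK-high (right) cells of each mouse, each panel with its own linear axis from 0; 1 line joins the sets of 1 mouse. Emb, Aff3, Cd7 and Ctla2a were higher in NK-low cells in all 10 mice and Angpt1 in 9, while Gzma, Klra3, Irf8, Ly6c2 and Lgals1 were lower in all 10.

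Promoter letters are shown for the leading higher gene Emb, for the copies Ctla2a and Ctla2b that rose together, and for Gzma, the lower gene with the smallest adjusted p. Each is 250 bases before to 50 after a RefSeq transcript start on GRCm38.p6, 5′ to 3′ along the gene, and capitals mark a match to a searched motif. The motifs were ATCAAAG (TCF and LEF factors), GGTGTGA (T-box factors) and TGACTCA (AP-1), each on both strands, with no overlap between matches in these windows.
Emb (chr13:117220323-117220622, plus strand): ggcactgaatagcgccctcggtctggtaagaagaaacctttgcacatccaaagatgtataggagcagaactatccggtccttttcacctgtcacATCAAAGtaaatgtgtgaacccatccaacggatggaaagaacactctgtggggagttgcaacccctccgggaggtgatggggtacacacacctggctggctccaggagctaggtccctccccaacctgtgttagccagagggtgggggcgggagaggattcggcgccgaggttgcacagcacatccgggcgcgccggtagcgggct
Ctla2a (chr13:60936576-60936875, minus strand): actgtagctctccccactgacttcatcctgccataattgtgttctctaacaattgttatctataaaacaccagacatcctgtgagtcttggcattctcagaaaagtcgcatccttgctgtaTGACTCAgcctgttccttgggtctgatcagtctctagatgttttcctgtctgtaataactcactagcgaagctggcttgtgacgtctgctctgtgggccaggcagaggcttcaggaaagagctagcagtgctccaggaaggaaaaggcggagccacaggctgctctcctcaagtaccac
Ctla2b (chr13:60897398-60897697, minus strand): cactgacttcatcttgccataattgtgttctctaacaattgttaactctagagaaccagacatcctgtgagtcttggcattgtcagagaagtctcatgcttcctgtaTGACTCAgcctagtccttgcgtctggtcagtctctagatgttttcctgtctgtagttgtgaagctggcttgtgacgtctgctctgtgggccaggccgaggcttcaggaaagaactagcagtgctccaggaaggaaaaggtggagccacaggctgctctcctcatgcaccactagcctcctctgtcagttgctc
Gzma (chr13:113100932-113101231, minus strand): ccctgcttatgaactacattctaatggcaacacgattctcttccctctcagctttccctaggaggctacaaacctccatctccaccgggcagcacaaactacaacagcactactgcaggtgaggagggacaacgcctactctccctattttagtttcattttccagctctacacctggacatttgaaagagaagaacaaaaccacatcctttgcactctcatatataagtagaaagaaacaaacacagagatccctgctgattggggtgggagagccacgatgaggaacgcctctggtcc
RefSeq held windows for 9 of the 12 named higher genes (12 windows) and 11 of the 12 named lower genes (13 windows). The TCF and LEF letters stood in 1 of the 12 higher windows, that of Emb, and in 0 of the 13 lower windows, against 3.73% of all 32851 windows. The AP-1 letters stood in 3 of the 12 higher windows, all of the Ctla2 pair, and in 2 of the 13 lower windows (Fgl2 and Morrbid), against 5.20% of all windows. The Ctla2a windows overlap and hold the same site, and Ctla2b is a close copy, so these are not separate matches. The T-box letters stood in none of the 25 windows, against 3.98% of all. These are matches of letters only.

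The maturation lists, which were compiled with earlier results of these data known, moved in opposite directions. Of 15 immature NK genes 6 could be tested, of which 4 were higher (Emb, Ctla2a, Cd7 and the adhesion receptor gene Cd226) and 0 lower, with a median log2 fold change of 1.19. Emb passed the filter through NK-low cells alone and Cd7 mainly through them, which shapes this count and median. Over all tested genes 13.5% were higher and 9.17% lower. Of 15 mature NK genes 12 could be tested, of which 10 were lower and 0 higher, with a median of -0.67. The lower ones were Gzma, Lgals1, Ly6c2, Zeb2, Emp3, Rap1b, Cma1, Spn, Itgam and Anxa2, and S1pr5 and Serpinb6b were not called. Itgam lost its call with at least 10 cells per mouse (-0.44, edgeR adjusted p = 0.0725) and with thinned cells (-0.38, adjusted p = 0.158). It also lost it in the gonadotropin (-0.55) and untreated (-0.32) pools alone and without gonadotropin mouse 3 (-0.39) or 4 (-0.40). Spn lost its call in the untreated pool alone (-0.52). Lgals1, which encodes galectin-1, ran from 840 to 1440 CPM (median 1170) in NK-low and from 1930 to 3490 CPM (median 2290) in NK-high cells. Zeb2 ran from 659 to 1410 CPM (median 961) in NK-low and from 1370 to 1960 CPM (median 1560) in NK-high cells.

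The best-known early gene, Tcf7, was too low for the main filter and was read at a lower minimum of 3 counts. Tcf7 had 108, 143, 159, 146 and 54.2 CPM in NK-low cells of gonadotropin mice and 74.9, 151, 157, 89.3 and 70.0 CPM in those of untreated mice, against 9.06, 0, 18.2, 30.7 and 16.9 CPM and 0, 16.2, 0, 0 and 26.6 CPM in their NK-high cells. Every NK-low sum was above every NK-high sum (log2 fold change 2.88 ± 0.32, edgeR adjusted p = 5.23e-11). With this minimum Cd27 (1.75 ± 0.29), Thy1 (1.66 ± 0.30) and the chemokine receptor gene Cxcr3 (2.01 ± 0.39) were also higher, and Cx3cr1 (-3.38 ± 0.36) and Klrg1 (-1.59 ± 0.21), marks of late NK cells, were lower. A gene that reached this minimum only through the set where it was high had to differ, and these counts support nothing further.

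Cell by cell, the 2 markers of maturation were mixed within NK-low cells. A Cd27 UMI without Itgam was seen in 26 of 183 NK-low cells (14.2%, 95% Clopper-Pearson interval 9.5% to 20.1%) and 5 of 183 NK-high cells. Both were seen in 54 NK-low and 25 NK-high cells, and Itgam alone in 77 NK-low and 129 NK-high cells. The largest NK-low class was thus still Itgam alone. Angpt1 was seen in 97 of 183 NK-low cells (53.0%, interval 45.5% to 60.4%), 33 of 183 NK-high cells (18%, 12.8% to 24.4%) and 29 of 91 chemokine-high cells, with 0.884% in the other kept cells. Intervals cover counting error only, and a gene not seen in a cell may still be expressed.

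Angpt1 by mouse ran from 105 to 433 CPM (median 240) in NK-low and from 0 to 159 CPM (median 60.0) in NK-high cells. It was higher in NK-low cells in 9 of 10 mice, with untreated mouse 1 the exception (log2 fold change 1.87 ± 0.23, edgeR adjusted p = 6.48e-08). Angpt1 passed the filter mainly through NK-low cells, where it was high, so it had to differ and the test supports nothing further. Klri2 did not follow it, with a median of 436 CPM in NK-low and 492 CPM in NK-high cells (-0.17 ± 0.13, adjusted p = 0.356).

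Transcription factor genes divided, where 13.5% of all tested genes were higher and 9.17% lower. Of 11 tested, 3 were higher in NK-low cells, Bach2 (log2 fold change 1.15 ± 0.16), a repressor of effector genes in lymphocytes, Tox (1.05 ± 0.16), needed for NK cell development, and Ets1 (0.61 ± 0.13), and each was higher in 9 of 10 mice. Irf8, Zeb2 (-0.75 ± 0.10), Klf2 (-0.44 ± 0.12) and Tbx21 (-0.42 ± 0.15) were lower, the last in 7 of 10 mice. Tbx21 lost its call in 11 alternatives, among them DESeq2 (-0.45, adjusted p = 0.0772) and 5 omissions of 1 mouse (gonadotropin mouse 3 and untreated mice 1, 2, 3 and 5, -0.41 to -0.33), and stood at -0.20 in the gonadotropin pool alone. Klf2 lost its call in 5, among them at least 10 cells per mouse (-0.39) and the gonadotropin pool alone (-0.24). The list median was -0.15.

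Receptors and signalling parts of interleukins 12, 15 and 18, the cytokines that arm NK cells, divided too. Il18r1 ran from 472 to 818 CPM (median 620) in NK-low and from 172 to 415 CPM (median 295) in NK-high cells, without overlap (log2 fold change 1.12 ± 0.12). Stat4 (0.68 ± 0.11), the main transducer of interleukin 12, and the kinase gene Jak1 (0.41 ± 0.09) were higher in all 10 mice. Il12rb2 (-0.75 ± 0.15), a chain of the interleukin 12 receptor, was lower in 9 of 10 mice, and 4 of the 8 tested genes of this list were not called. Of all tested genes 22.6% were called.

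Other groups had some called members, where 13.5% of all 2235 tested genes were higher and 9.17% lower. Of 25 ribosomal protein genes 17 were higher and 0 lower, with a median log2 fold change of 0.29. Of 17 nuclear genes of the respiratory chain 6 were lower and 0 higher (median -0.29), led by Cycs (-0.79 ± 0.17), while 3 of 11 mitochondrially encoded genes were higher and 0 lower (median 0.22). Of 6 heat shock genes 5 were lower (median -0.41), among them the mitochondrial chaperone gene Hspd1 (-0.71 ± 0.16). Of 9 tested granule and killing genes 4 were lower, Gzma, Nkg7 (-0.57 ± 0.08), Serpinb9 and Cst7 (-0.76 ± 0.19), and Rab27a (0.56 ± 0.20), which docks granules, was higher. Ccl5 (-0.50 ± 0.08), a chemokine gene not in the rule, was lower in all 10 mice, and Itgb1 (0.51 ± 0.11) higher in all 10.

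Some markers of other cell types differed in this contrast, where 13.5% of all tested genes were higher. Of 4 tested T cell marker genes 3 were higher in NK-low cells, Trbc1 (log2 fold change 0.67 ± 0.15), Lef1 (0.72 ± 0.17) and Trbc2 (0.52 ± 0.17), with Cd4 and Cd5 at 0. The call of Trbc2 was lost with DESeq2 (0.55, adjusted p = 0.0678) and in 9 other alternatives, with values from 0.35 to 0.73. At the minimum of 3 counts the B cell gene Ighm was higher (1.61 ± 0.30, edgeR adjusted p = 3.95e-05), with 44.9 to 134 CPM (median 82.3) in NK-low and 0 to 53.2 CPM (median 30.8) in NK-high cells and a higher level in NK-low cells in 10 of 10 mice. The endothelial and leukocyte gene Pecam1 (1.01 ± 0.27, adjusted p = 0.00745) was higher at that minimum in 9 of 10 mice. The part of T cells, B cells or free RNA in these values was not tested. None of the 9 ILC1 genes passed the main filter, and at the lower minimum Inpp4b was higher (3.03 ± 0.33). Inpp4b reached that minimum mainly through NK-low cells, where it was high, so it had to differ. Without the cells that held any UMI of Itga1, Cxcr6 or Tnfsf10, a step chosen after seeing the data which left 143 NK-low and 163 NK-high cells, the comparison gave 204 higher and 150 lower genes of 1809. Aff3 (2.35 ± 0.20), Cd7 (1.68 ± 0.22), Ctla2a (1.56 ± 0.17), Angpt1 (1.90 ± 0.25) and Gzma (-1.08 ± 0.09) were about as far apart there, while 5 genes were no longer called by edgeR. The limit of the filter given above for Aff3, Cd7 and Angpt1 holds there too. With these cells left out, Cd226 was at 0.43 ± 0.24 (adjusted p = 0.207), against 0.71 ± 0.20 with them, and Klf2 at -0.24 ± 0.12 (0.153), against -0.44 ± 0.12. Itgam was at -0.34 ± 0.15 (0.0925), against -0.47 ± 0.14, Spn at -0.38 ± 0.16 (0.0879), against -0.58 ± 0.15, and Tbx21 at -0.44 ± 0.17 (0.0649), against -0.42 ± 0.15.

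**Figure D4:**
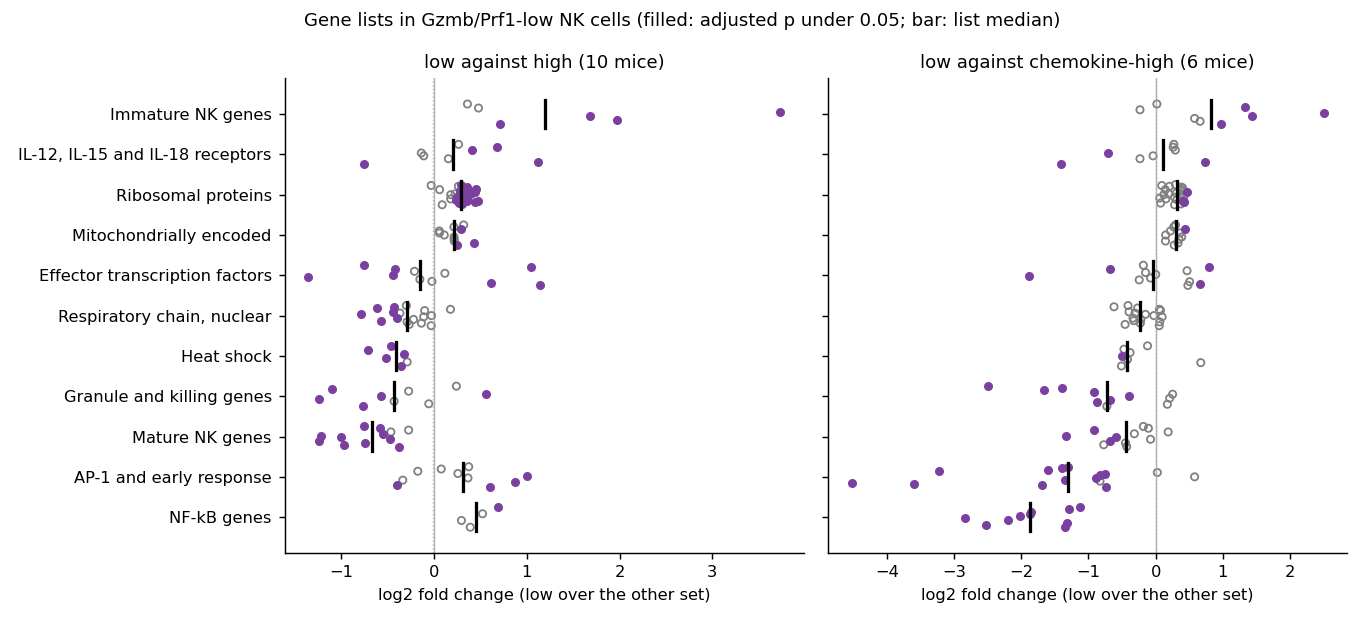
log2 fold changes (horizontal axis) of the tested genes of 11 lists, NK-low over NK-high (left, 10 mice) and over chemokine-high NK cells (right, 6 mice). Points are genes, filled where the edgeR adjusted p was under 0.05, and the bar is the median of the list. On the left the medians run from 1.19 for immature to -0.67 for mature NK genes, and on the right NF-kB genes (-1.87) and early response genes (-1.3) stand lowest, lists in which several genes passed the filter only through chemokine-high cells.

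NK-low cells also differed from the 91 chemokine-high cells that the rule removed. Both sets reached 5 cells in 6 mice (4 gonadotropin, 2 untreated), and 111 (4.11%) of the 2698 tested genes passed as higher and 140 (5.19%) as lower in NK-low cells, 9.30% in all. The median log2 fold change over all genes was 0.0049. The removal was made on 6 activation genes in these cells, with a median sum of 891 CPM in NK-low and 13100 CPM in chemokine-high cells, so genes that are induced with them had to differ. Without gonadotropin mouse 4, which gave the most cells, 152 genes were called.

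Egr1, an immediate early transcription factor gene, had 41.2, 60.6, 60.3 and 13.5 CPM in NK-low cells of gonadotropin mice 1, 3, 4 and 5 and 24.2 and 0 CPM in those of untreated mice 2 and 5. In chemokine-high cells of the same mice it had 552, 413, 853 and 359 CPM, and 138 and 94.8 CPM. No NK-low value reached the lowest chemokine-high value (log2 fold change -3.59 ± 0.27, edgeR adjusted p = 1.24e-11). Of 14 NF-kB genes 10 passed the filter here, and these were lower in NK-low cells, with a median of -1.87, led by Nfkbid (-2.83 ± 0.26) and the adhesion gene Icam1 (-2.52 ± 0.24), with Nfkbia (-2.20 ± 0.22) among them. Of 20 early response genes 15 passed the filter, of which 12 were lower and 0 higher, with a median of -1.3, among them Egr3 (-4.53 ± 0.42) and Nr4a1 (-3.22 ± 0.29). Nfkbid, Icam1, Nfkbiz, Relb and Birc3, and Egr1, Egr3, Nr4a1, Ppp1r15a and Zfp36, failed the main filter between NK-low and NK-high cells and between treatments. They passed with chemokine-high cells, where they were high, so they had to differ here. The counts and medians of both lists are shaped by this and support nothing. The stress gene Gadd45b (-3.85 ± 0.31), the survival gene Bcl2a1b (-3.04 ± 0.24), the demethylase gene Kdm6b (-2.75 ± 0.26), Crtam (-2.60 ± 0.28), Tagap (-2.54 ± 0.23), Stx11 (-2.49 ± 0.32) and Alcam (-2.41 ± 0.37) completed the named lower genes. These genes too failed the main filter between NK-low and NK-high cells. They passed here with chemokine-high cells, where they were high, so they had to differ as well.

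Several genes that separated NK-low from NK-high cells also separated them from chemokine-high cells, which share the NK-low sums. They were Emb (2.50 ± 0.35), Aff3 (2.0 ± 0.25), Ccr2 (1.74 ± 0.27), Angpt1 (1.55 ± 0.25), Ssbp2 (1.53 ± 0.27) and Ctla2a (1.43 ± 0.20). Emb passed the filter here too mainly through NK-low cells, where it was high, so it had to differ. The other named higher genes were Bbs9 (1.90 ± 0.39), Cmah (1.86 ± 0.38), Fbxl20 (1.53 ± 0.34), the signalling adaptor gene Sh2d1a (1.47 ± 0.28), Klhl6 (1.36 ± 0.24) and Rttn (1.35 ± 0.40). Bbs9, Cmah, Fbxl20 and Rttn did not pass the main filter between NK-low and NK-high cells. They passed here mainly through NK-low cells, where they were high, so they had to differ. With DESeq2 Cmah (1.85), Fbxl20 (1.46) and Rttn (1.45) had no adjusted p and were not called. Rttn was also not called without gonadotropin mouse 3 (1.12). Cd7 did not pass against chemokine-high cells (0.58 ± 0.23, adjusted p = 0.121), nor did Cd44 (0.15 ± 0.26, adjusted p = 0.795). Of 8 tested immature genes 4 were higher and 0 lower (median 0.82), and of 12 mature genes 4 were lower and 0 higher (median -0.44). Over all tested genes 4.11% were higher and 5.19% lower. Emb is among the immature genes called, and its passage through the filter shapes this count and median. At the minimum of 3 counts, where the same limit holds, the immature genes Il7r and Cxcr3 were higher. Tcf7 (1.02 ± 0.33, edgeR adjusted p = 0.0517), Thy1 and Kit were not called there.

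Few genes differed between NK-low cells of gonadotropin and untreated mice at this depth. Among 2274 genes in 5 against 5 mice, gonadotropin mice had 2 higher (0.088%) and 2 lower (0.088%), 0.176% in all, and 28 (1.23%) did not overlap between the groups. At an unadjusted p under 0.05 there were 123, and DESeq2 called 3. The median log2 fold change over all genes was -0.01. NK-low sums held from 77006 to 348490 UMIs per gonadotropin mouse and from 44769 to 165173 per untreated mouse.

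Dgkz encodes diacylglycerol kinase zeta, which ends diacylglycerol signalling below antigen and NK receptors. It had 195, 208, 129, 209 and 183 CPM in NK-low cells of gonadotropin mice, against 74.9, 96.9, 33.7, 44.7 and 81.7 CPM in untreated mice. The groups did not overlap (log2 fold change 1.35 ± 0.28, edgeR adjusted p = 0.0276). In NK-high cells Dgkz had 115, 188, 119, 192 and 136 CPM in gonadotropin and 124, 114, 150, 57.2 and 70.9 CPM in untreated mice, and there the groups overlapped. The test of whether the treatment difference was another in NK-low than in NK-high cells gave a log2 difference of 0.86 ± 0.41 (edgeR adjusted p = 0.992).

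Junb, a member of the AP-1 family of early response factors, had 185, 234, 318, 296 and 176 CPM in gonadotropin and 465, 406, 416, 514 and 478 CPM in untreated NK-low cells. Every gonadotropin mouse was below every untreated mouse (log2 fold change -0.88 ± 0.19, edgeR adjusted p = 0.0276). Junb also stood lower, without overlap, in all kept cells outside the NK gate (the 4410 other cells and the 51 that failed the fourth sum), with 237, 233, 230, 227 and 211 CPM in gonadotropin and 424, 375, 325, 355 and 353 CPM in untreated mice. Of the 10 tested early response genes 1, Junb, was lower and 0 higher (median -0.44), against 0.088% of all tested genes in each direction. Ier2 (-0.72 ± 0.27, adjusted p = 0.695) and Fos (-0.54 ± 0.31) did not pass, nor did Jun (0.55 ± 0.26).

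The other 2 called genes lay outside the naming rule and were named after their values were seen. S100a6, which encodes a calcium-binding protein, had 494, 234, 280, 600 and 413 CPM in gonadotropin and 734, 969, 1340, 826 and 595 CPM in untreated NK-low cells. The highest gonadotropin mouse was just above the lowest untreated mouse (log2 fold change -1.08 ± 0.20, edgeR adjusted p = 0.00619). S100a6 was also lower in NK-low than in NK-high cells (-0.96 ± 0.14). Gm42418, a gene model that overlaps ribosomal RNA sequence, had 6430, 6610, 5390, 5930 and 5920 CPM in gonadotropin and 3730, 4290, 4170, 3840 and 3560 CPM in untreated NK-low cells (0.61 ± 0.09, adjusted p = 0.000295). It did not overlap between the groups in the cells outside the NK gate either, with 6390 to 6970 CPM in gonadotropin and 4940 to 5600 CPM in untreated mice, and the part of library preparation in it was not tested.

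**Figure D5:**
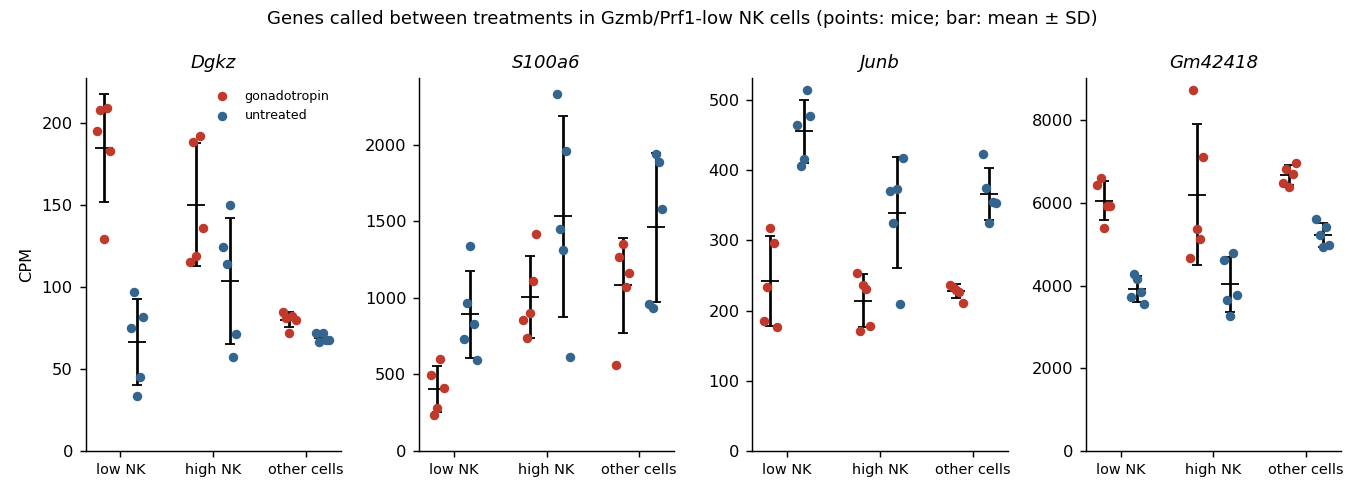
CPM of the 4 genes called between treatments in NK-low cells, for NK-low, NK-high and all kept cells outside the NK gate (labelled other cells). Points are mice (gonadotropin left of untreated, 5 each) and bars the mean ± SD, on linear axes from 0. Dgkz averaged 184.9 CPM with gonadotropin and 66.37 CPM without in NK-low cells, and Junb and Gm42418 did not overlap between the groups in the other cells either.

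The calls differed in how they held when 1 mouse was left out. Gm42418 was called in all 10 omissions (log2 fold change 0.57 to 0.66). S100a6 lost its call without untreated mouse 2 (-1.04, edgeR adjusted p = 0.0721) and without untreated mouse 3 (-0.89, adjusted p = 0.127), and with cells thinned to 2000 UMIs (-0.81, adjusted p = 0.286). Dgkz lost its call when any of gonadotropin mice 1, 2, 4 or 5 or untreated mice 1, 3, 4 or 5 was left out (log2 fold change 1.17 to 1.63 over all 10 omissions, adjusted p up to 0.238), and Junb when any mouse other than gonadotropin 3 or 4 was left out (-1.0 to -0.78, adjusted p up to 0.209). Among genes without overlap and with a low unadjusted p were Vav1 (0.83 ± 0.30), Kdm5a (0.68 ± 0.26), Nfatc3 (0.42 ± 0.17) and Taok1 (0.65 ± 0.27) on the higher side, and Zbtb11 (-0.89 ± 0.27), Tm6sf1 (-0.57 ± 0.18), Spry2 (-0.67 ± 0.23), Sec61g (-0.51 ± 0.20) and Saraf (-0.55 ± 0.22) on the lower, none of them called.

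Of the genes that differed between NK-low and NK-high cells, S100a6 was called between treatments as well, while 5 of the genes described above were not. Emb (0.19 ± 0.26), Aff3 (0.11 ± 0.23), Cd7 (0.24 ± 0.23), Angpt1 (0.38 ± 0.26) and Gzma (-0.24 ± 0.11) all had adjusted p over 0.9 (edgeR). Of 8 tested immature and 12 tested mature NK genes 0 were called either way (medians 0.026 and -0.077), with 2 of 2274 genes called higher and 2 lower over the whole comparison. Gzmb, which the rule used and which was not tested, averaged 154 ± 38.3 CPM in gonadotropin and 163 ± 67.7 CPM in untreated NK-low cells, and Prf1 445 ± 76.9 and 458 ± 76.7 CPM (SD, n = 5 each). In the interaction of treatment and set, 0 of 2931 genes (0%) passed in edgeR and 0 in DESeq2, with 94 at an unadjusted p under 0.05 in edgeR. Klra1 had the smallest adjusted p there (log2 difference 1.76 ± 0.46, adjusted p = 0.856), and Vav1 (1.26 ± 0.43) and Nfic (-1.84 ± 0.58) were not called either.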

How the data were processed

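The authors deposited raw UMI counts per gene and cell for each pooled library; per the submitters' processing notes they used bcl2fastq, Cell Ranger and Seurat with mm10, with no versions given. From these counts, cells were assigned to mice by their hashtags and gated as described above. Members and lists were chosen with earlier results of these data known. UMIs were summed per mouse and set (at least 5 cells) and tested with edgeR 4.0.16 in R 4.3.3 (quasi-likelihood F test, TMM scaling, filterByExpr with a minimum count of 10, Benjamini-Hochberg adjustment over all tested genes except the 20 rule genes). SE is the absolute log2 fold change divided by the square root of F. Comparisons of sets within mice had the mouse as a term, because both sets come from the same animal. CPM is counts per 1000000 UMIs of the summed set. Shares were compared with exact two-sided permutation tests. Up to 12 called genes per direction were named, by size of fold change among those that went the same way in every mouse (or did not overlap between groups) with an average level of 5 or more in log2 CPM, and where fewer than 6 were called the list was filled to 6 by p. Gene models (Gm, Rik), mitochondrial and ribosomal genes, receptor segments and rule genes stood outside this. Alternatives were DESeq2 1.42.0, other filters and scalings, thinned counts, leaving out mice, and fits without the mouse term. Hashtag doublets and negatives were left out. A gene that the naming rule chose is not reported here.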

Additional observations from a re-analysis of the deposited data

Results flagged for a closer look

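Of 136 groups of 5 mice, 4 held a mouse far from the other 4, and chance gives about 1 in 20. In NK-low cells Klra3 was lowest in gonadotropin mouse 3, at 30.3 CPM, and Tagap was highest in untreated mouse 4, at 156 CPM. Egr3 stood at 11.7 CPM in NK-low cells of untreated mouse 5, which is 1 UMI, with the other 4 untreated mice at 0. Gadd45b was lowest in the same mouse, at 0.0 CPM. Among the hashtag doublets, which no comparison used, 28 of 693 in the gonadotropin library and 7 of 655 in the untreated library met the NK sums.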

How the results depend on the processing

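The 4 treatment calls in NK-low cells fell to 2 with a minimum count of 3, with at least 10 cells per mouse, with the lowest against the highest of 3 equal parts of the Gzmb plus Prf1 share, without cells holding B cell or myeloid UMIs, and without cells holding Itga1, Cxcr6 or Tnfsf10 UMIs (chosen after seeing the data), to 1 with cells thinned to 2000 UMIs, and to 0 with at least 15 cells per mouse, where fewer mice remained. Leaving out 1 mouse gave 1 to 4 calls, the 1 being without untreated mouse 3. The 506 calls between NK-low and NK-high cells became 119 with thinned cells, where 489 genes were tested, and 338 with DESeq2; they were 244 and 161 in the gonadotropin and untreated pools alone, which hold fewer mice and were chosen after seeing the data, and 369 to 470 without 1 mouse. The 251 calls against chemokine-high cells became 167 with DESeq2, 75 thinned and 34 in the untreated pool alone, and 152 to 307 without 1 mouse, the 152 being without gonadotropin mouse 4. The interaction gave 1 call with no filter, with at least 15 cells per mouse and without untreated mouse 5, and 0 to 1 over the omissions; Rhoa, not called, was at -0.187 thinned. Fitted with no replicate block (without the mouse term), the comparisons gave 489 calls against NK-high and 282 against chemokine-high cells, and Tbx21 and Trbc2 lost their call. Mouse numbers do not pair the treatment groups, since they name different animals. The difference in the share of NK-low cells ran from 2.17 to 2.93 percentage points without 1 mouse, that of all NK cells from 5.85 to 8.24. With cells thinned to 2000 UMIs before the rule the NK-low difference was 1.52 points (exact permutation test, adjusted p = 0.0476) and that of all NK cells 5.03 (0.0476). With all gated NK cells as the denominator the NK-low difference was -0.392 points. NK-low among NK-low plus NK-high cells differed by -1.08 to 5.43 points without 1 mouse, by -0.218 without untreated mouse 5 and by -0.428 with cells thinned before the rule. Except where the fewer mice or genes are named, the cause was not tested. Of the genes followed against NK-high cells, 1027 results over the alternatives kept their call and direction and 50 lost the call.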
